A study of Mus musculus with 18 samples.

Results

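The SLC25 family was examined as the 44 genes whose symbol is Slc25a followed by a number, out of 30975 symbols with a gene ID in the deposited expression tables. These 44 genes occupied 47 rows, and the row with the highest mean RPKM (a read count corrected for transcript length and library total) stood for each gene. RNA was sequenced from male wild-type C57BL/6 mice aged 16 weeks kept on high-fat diet (HFD) during 12 weeks. The 18 libraries fell into 3 groups of 6: mature adipocytes floated from collagenase-digested inguinal white adipose tissue (iWAT), mature adipocytes floated from epididymal white adipose tissue (eWAT), and whole brown adipose tissue (BAT). In what follows the depot names stand for their adipocyte fractions. 1 label field gave regular chow for these samples, against the titles and the methods. BAT was frozen tissue, although 1 label calls it adipocytes, so all its cell types contributed RNA, and an adipocyte fraction was never set against an adipocyte fraction from BAT.

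Most SLC25 proteins are carriers of the inner mitochondrial membrane (Slc25a17 and Slc25a46, described below, are not), built from repeated pairs of membrane helices. They exchange ADP for ATP, bring in phosphate, and move citrate, malate, aspartate, acylcarnitines, cofactors and iron between cytosol and matrix. In white adipocytes export of citrate feeds fatty acid synthesis, whereas brown adipocytes oxidize fatty acids and other fuels to make heat. The uncoupling proteins have the same fold but other symbols, and so lie outside the 44 genes.

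Depth ranged from 24655056 to 42518483 reads on annotated rows per library, and SLC25 rows held 0.202% to 0.244% of reads in iWAT, 0.162% to 0.190% in eWAT and 0.214% to 0.279% in BAT. In BAT the 10 rows with the most reads took 47.1% ± 3.99 of all reads (SD, n = 6), against 17.9% ± 2.33 in iWAT and 11.9% ± 1.09 in eWAT. Brown adipocyte markers (Ucp1, Cidea, Dio2, Ppargc1a and Cox7a1) summed to 2218 to 3021 RPKM in BAT, 12.0 to 17.4 in iWAT and 3.46 to 5.85 in eWAT. The sum over 5 general adipocyte markers was 11221 to 15701 RPKM in iWAT, 2511 to 7806 in eWAT and 5402 to 6631 in BAT. Macrophage markers were present in the floated fractions: 7 of them summed to 460 to 909 RPKM in iWAT and 2605 to 4186 in eWAT, but to 25.4 to 50.6 in BAT. eWAT libraries 1 and 3 had the lowest adipocyte sums (3433 and 2511) and the highest macrophage sums (4186 and 4123). Skeletal muscle markers summed to 69.04 to 122 RPKM in 4 BAT libraries, but to 1.83 in BAT library 2 and 20.04 in BAT library 17.

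The sequences of the carriers most different between tissues are shown first. Of the 44 genes, 34 matched a RefSeq promoter, and the 10 others had no entry. The 4 promoters below belong to the carriers, among those with 1 matched promoter, with the largest changes called for BAT (Slc25a48, Slc25a42) and for white adipocytes (Slc25a10, Slc25a13) in the comparison of iWAT with BAT. Each runs from 250 bases before to 50 bases after the annotated start, in build GRCm38.p6 (the expression tables use mm9). The windows are chr13:56438105-56438404, plus strand for Slc25a48, chr8:70212232-70212531, minus strand for Slc25a42, chr11:120491587-120491886, plus strand for Slc25a10 and chr6:6217124-6217423, minus strand for Slc25a13. Capitals mark a CCAAT box (CCAAT) or a GC box (GGGCGG), on either strand.
Slc25a48: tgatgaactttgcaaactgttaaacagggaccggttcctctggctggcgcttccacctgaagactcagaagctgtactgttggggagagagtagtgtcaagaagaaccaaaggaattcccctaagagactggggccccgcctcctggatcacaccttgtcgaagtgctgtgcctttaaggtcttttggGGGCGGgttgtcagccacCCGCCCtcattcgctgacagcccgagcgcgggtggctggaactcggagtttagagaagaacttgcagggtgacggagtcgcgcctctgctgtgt
Slc25a42: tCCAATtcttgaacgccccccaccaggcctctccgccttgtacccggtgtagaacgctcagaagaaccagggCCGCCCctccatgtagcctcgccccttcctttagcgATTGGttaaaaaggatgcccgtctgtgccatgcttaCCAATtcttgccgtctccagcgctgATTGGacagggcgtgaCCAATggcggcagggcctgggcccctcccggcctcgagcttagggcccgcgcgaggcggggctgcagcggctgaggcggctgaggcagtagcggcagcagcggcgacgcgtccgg
Slc25a10: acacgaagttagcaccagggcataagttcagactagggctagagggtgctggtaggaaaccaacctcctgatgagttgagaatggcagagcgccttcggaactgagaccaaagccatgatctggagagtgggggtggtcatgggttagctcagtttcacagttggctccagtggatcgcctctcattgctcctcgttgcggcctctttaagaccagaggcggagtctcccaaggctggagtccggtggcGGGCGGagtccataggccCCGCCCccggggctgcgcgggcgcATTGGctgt
Slc25a13: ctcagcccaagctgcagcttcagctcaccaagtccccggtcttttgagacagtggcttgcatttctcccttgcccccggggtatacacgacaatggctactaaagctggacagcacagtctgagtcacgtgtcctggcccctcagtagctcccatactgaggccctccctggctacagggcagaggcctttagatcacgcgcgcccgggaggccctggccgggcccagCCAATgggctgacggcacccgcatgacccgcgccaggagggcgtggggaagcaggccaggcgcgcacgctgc
Slc25a42 held 5 CCAAT boxes and 1 GC box, Slc25a48 held 2 GC boxes, Slc25a10 held 1 CCAAT box and 2 GC boxes, and Slc25a13 held 1 CCAAT box. Over the 43 promoters of the 34 genes, a GC box was found in 83.7%, against 35.7% of all 32851 RefSeq promoters, and a CCAAT box in 48.8% against 37.4%. The ETS letters CCGGAAG occurred in 14.0% (6 promoters, of Slc25a3, Slc25a4, Slc25a17, Slc25a20, Slc25a25 and Slc25a38) against 8.86%, and the TATA letters TATAAA in 4.65% against 13.6%. The letters TCAAGGTCA (estrogen-related receptors) were in none of the 43 and in 0.423% of all promoters. An exact NRF1 element and an exact direct repeat for nuclear receptors (whose repeated letters overlap the receptor motif) were also in none of the 43, and in 0.971% and 0.0396% of all promoters. All motifs were searched on both strands.

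The tissues were then compared gene by gene with edgeR on read counts, a positive log2 fold change meaning a higher level in the tissue named first and a call meaning an adjusted p below 0.05 over all genes tested. Between the iWAT and eWAT fractions, 32 of the 39 carriers with enough reads were called, against 68.6% of all genes tested. Of these, 24 were higher in iWAT (34.1% of all genes were) and 8 were higher in eWAT (34.5% of all genes). Between iWAT and BAT, 34 of 38 carriers were called (75.3% of all genes), 7 higher in iWAT (38.1%) and 27 higher in BAT (37.2%). Between eWAT and BAT, 36 of 39 were called (82.5%), 9 higher in eWAT (41.1%) and 27 higher in BAT (41.4%). The carriers' median log2 fold changes were 0.38, -0.91 and -1.12 in these comparisons, where the median of all genes tested was 0.00, 0.01 and -0.02. An absolute log2 fold change of at least 1 was reached by 13, 23 and 29 of the called carriers, against 24.9%, 37.3% and 49.0% of all genes. The RPKM ranges of the compared groups did not overlap for 27 of 39, 24 of 38 and 34 of 39 carriers, against 44.0%, 65.3% and 68.4% of all genes, so without scaling by TMM the iWAT to BAT share was close to its background. These comparisons share libraries and are not independent of each other. In bulk RNA, fewer cells of a type and less RNA per cell cannot be told apart.

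**Figure D1:**
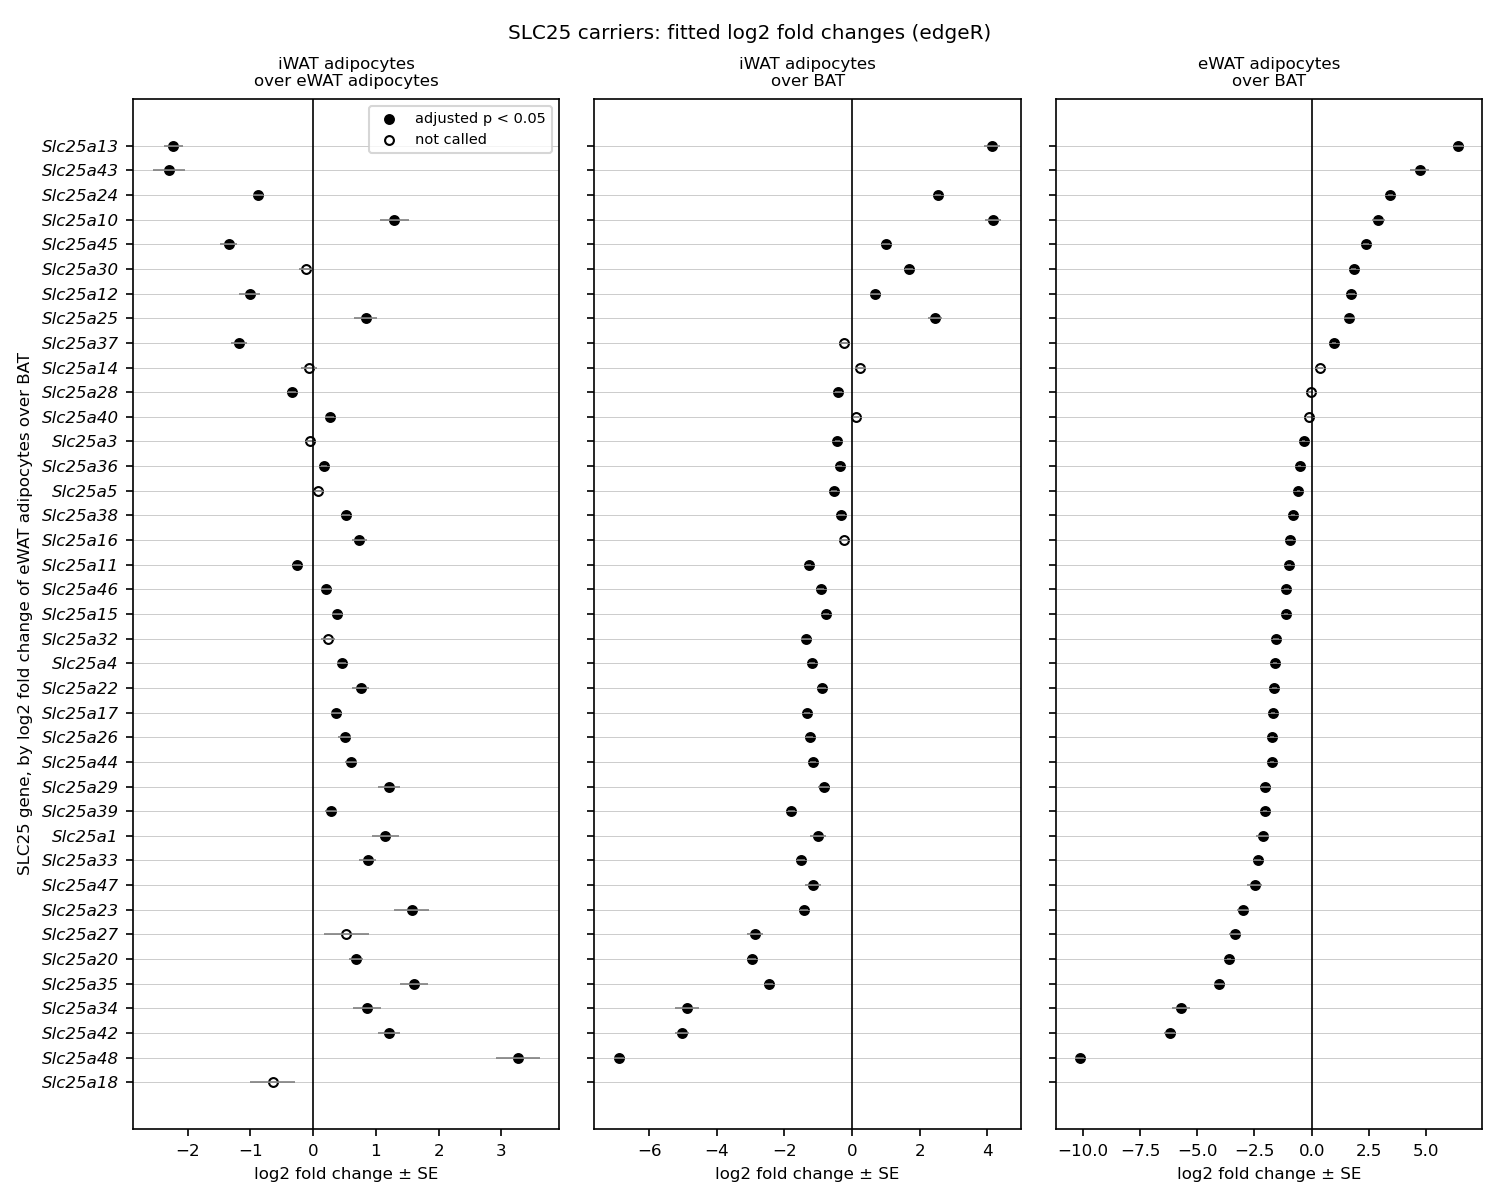
Log2 fold change ± SE (horizontal axes, edgeR) for the SLC25 genes with a test and drawn here (vertical axis, ordered by eWAT over BAT) in the 3 comparisons; filled points have an adjusted p below 0.05. Most points lie left of 0 in both BAT panels, from Slc25a48 at -6.90 and -10.13 to Slc25a10 at 4.18 (iWAT over BAT) and Slc25a13 at 6.40 (eWAT over BAT).

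The split of calls in the BAT comparisons depended on scaling. With no scaling beyond the total count, the all-gene median moved, on the log2 scale, by 0.85 for iWAT over BAT and by 0.91 for eWAT over BAT. The split was then 16 carriers higher in iWAT and 16 in BAT, and 15 higher in eWAT and 19 in BAT. The all-gene medians in this setting were 0.87 and 0.89, on the side of the white depots. The share of all genes called in each direction was not worked out here, so this split has no matching background. Slc25a3, Slc25a5, Slc25a36 and Slc25a38 changed sign in both BAT comparisons, and Slc25a15, Slc25a28 and Slc25a29 in the iWAT comparison, so their calls for BAT hold relative to the bulk of genes and not per total read. All BAT libraries carried the codes L003 and L004 in their descriptions and all white libraries L001 and L002 (read as sequencing lanes), so tissue and lane cannot be told apart in these 2 comparisons. Both white depots were in lanes 1 and 2: of the 32 carriers called between them, 28 were called again within lane 2 with all 32 in the same direction. Within lane 1, where 31 of the 32 could be tested, 21 were called again and all 31 kept their direction.

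With TMM scaling, 25 carriers were higher in BAT than in both white depots, and 20 of these 25 were also higher in iWAT than in eWAT. Another 7 carriers were lower in BAT than in both (Slc25a10, Slc25a12, Slc25a13, Slc25a24, Slc25a25, Slc25a30 and Slc25a45). The share of all genes with these joint patterns was not worked out, so the joint counts have no background. A list of 12 mitochondrial import and matrix genes, used as a reference, had 11 of 12 higher in BAT in each comparison, with median log2 fold changes of -1.23 and -1.49. Over all genes, 37.2% and 41.4% were called higher in BAT. The list's values also depend on the TMM scaling, without which the all-gene medians moved by 0.85 and 0.91. The 7 white-enriched carriers therefore ran opposite to this list, while the carriers' own medians in the BAT comparisons were of the same sign as its medians.

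**Figure D2:**
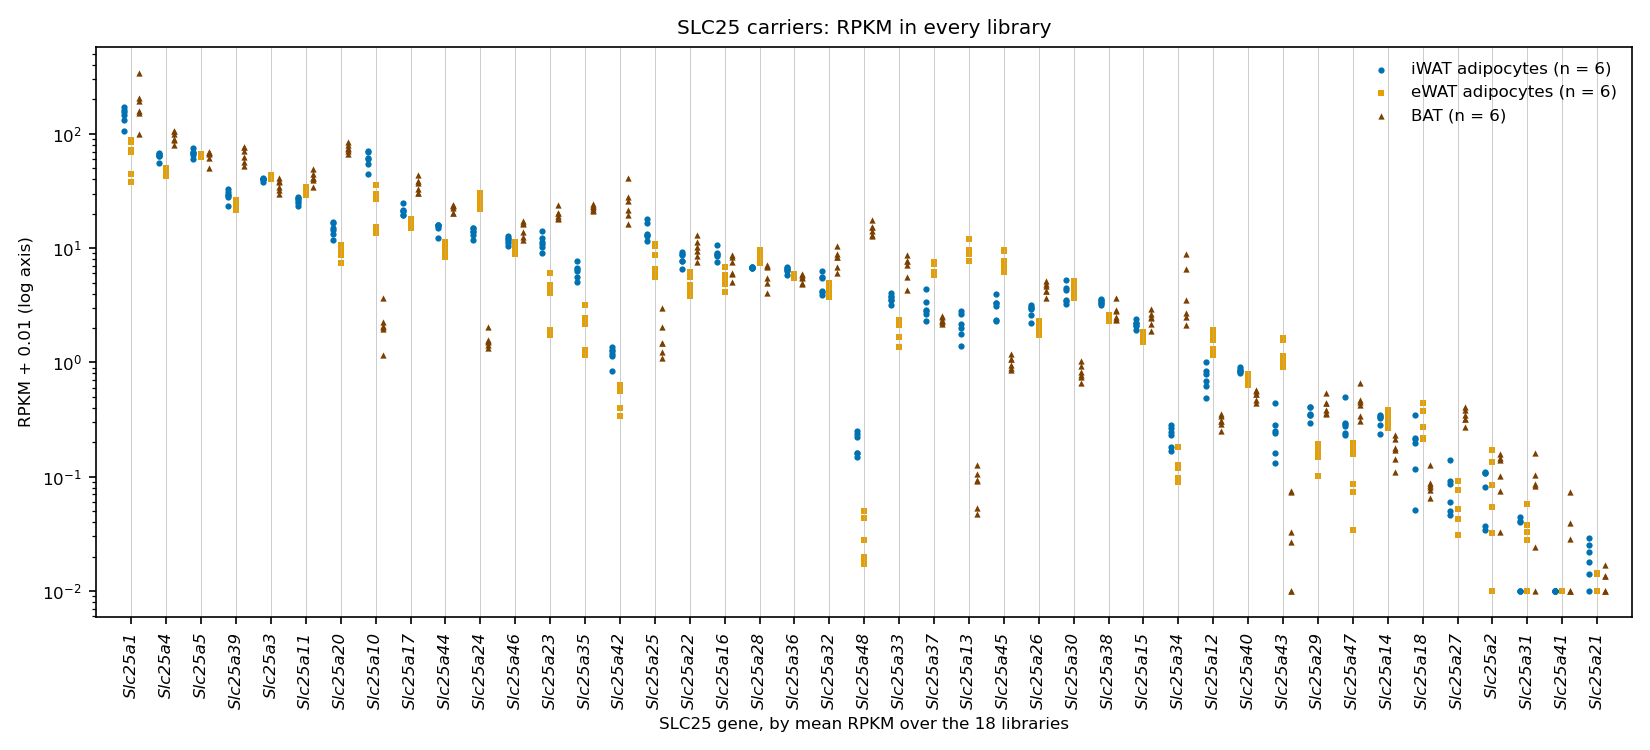
RPKM of 43 SLC25 genes in every library (vertical axis, log scale, RPKM + 0.01), ordered by their mean over the 18 libraries; circles are iWAT, squares eWAT and triangles BAT (n = 6 each). Slc25a1 is at the left, and the triangles stand apart below the other symbols at Slc25a10, Slc25a24 and Slc25a13 and above them at Slc25a42 and Slc25a48.

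Summed over the family, RPKM was 622 ± 51.0 in iWAT, 463 ± 35.3 in eWAT and 855 ± 89.0 in BAT (SD, n = 6 each). The 3 groups did not overlap on this scale, and each difference had an exact two-sided permutation p of 0.00216 (adjusted 0.00216 over 3 comparisons), the smallest that 6 against 6 allows. Divided by the TMM factors of the libraries, the sums were 517 ± 64.2, 367 ± 36.5 and 1307 ± 151, and the iWAT (403 to 586) and eWAT (313 to 408) ranges then overlapped. The 5 genes with the highest RPKM carried 60.6% ± 1.70 of this sum in iWAT (Slc25a1, Slc25a5, Slc25a4, Slc25a10 and Slc25a3) and 57.3% ± 5.10 in BAT (Slc25a1, Slc25a4, Slc25a20, Slc25a39 and Slc25a5). By mean share the citrate carrier Slc25a1 led in all 3 tissues, at 23.2% ± 2.13, 14.1% ± 3.53 and 22.01% ± 7.43 of the sum in iWAT, eWAT and BAT. It did not lead in every library. In eWAT, Slc25a5 held 13.98% ± 1.27 and was above it in library 1 (66.4 against 44.5 RPKM) and library 3 (64.1 against 37.9). In BAT library 2, Slc25a4 was above it (101 against 98.9 RPKM). These shares leave out a second Slc25a5 row, described further on. The other carriers with high shares differed between tissues. Slc25a10 made up 9.62% ± 0.836 of the sum in iWAT and 0.253% ± 0.0752 in BAT, and Slc25a20 made up 2.35% ± 0.132 and 8.84% ± 1.03.

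The adenine nucleotide carriers exchange cytosolic ADP for matrix ATP. Slc25a4, the form typical of heart and muscle, had lowest, median and highest RPKM of 55.5, 64.9 and 68.0 in iWAT, 43.0, 46.9 and 50.4 in eWAT, and 79.9, 95.5 and 106 in BAT. No library of 1 tissue reached the range of another. It was higher in BAT than in both depots (log2 fold changes -1.18 ± 0.09 and -1.61 ± 0.08 (SE), adjusted p = 6.22e-09 and 6.7e-11) and higher in iWAT than in eWAT (0.45 ± 0.07, adjusted p = 0.000134). Skeletal muscle markers were also higher in BAT (7 of 7 in both comparisons), and their part in this difference was not tested. With BAT libraries 2 and 17 alone as the BAT group, where these markers were lowest but not absent, the log2 fold changes were -1.22 and -1.68.

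Slc25a5, the form found in most tissues, had 60.8, 68.5 and 75.2 RPKM in iWAT, 62.5, 64.0 and 66.4 in eWAT and 50.6, 67.4 and 69.5 in BAT. All 3 ranges overlapped. It was called higher in BAT (-0.53 ± 0.09 and -0.58 ± 0.08), a sign that reversed without scaling as given above. Within a library, where scaling plays no part, Slc25a4 took 48.6% ± 1.75 of the pair's RPKM in iWAT, 42.2% ± 1.87 in eWAT and 59.8% ± 1.58 in BAT. Each of these differences had an exact permutation p of 0.00216 (adjusted 0.00271 over 25 ratio tests). Slc25a31, the germ cell form, had at most 11 reads in a library.

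The level of Slc25a5 is uncertain because the tables hold a second Slc25a5 row, with a single exon, at chr1:79918857-79920082 (mm9, minus strand). That row held 1061 to 2476 reads per library, against 2036 to 4500 on the Slc25a5 gene at chrX:34335646-34338802. Its bases matched 98.1% of the compared Slc25a5 coding bases (871 of 888), with 3 bases inserted and 9 missing, whereas the Slc25a4 coding sequence matched 77.5% (695 of 897). The 111 coding bases of the first coding exon show this, in mm9: Slc25a5 at chrX:34335726-34335836, plus strand, the single-exon row at chr1:79919891-79920001, minus strand, and Slc25a4 at chr8:47296166-47296276, minus strand. Capitals mark bases that differ from Slc25a5.
Slc25a5: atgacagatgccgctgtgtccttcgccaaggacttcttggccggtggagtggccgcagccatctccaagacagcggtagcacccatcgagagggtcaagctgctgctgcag
chromosome 1 row: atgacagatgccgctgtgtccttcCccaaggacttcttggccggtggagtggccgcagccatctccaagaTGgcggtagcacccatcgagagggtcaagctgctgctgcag
Slc25a4: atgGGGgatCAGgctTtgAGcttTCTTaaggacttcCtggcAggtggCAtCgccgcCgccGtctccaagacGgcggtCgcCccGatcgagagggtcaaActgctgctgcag
The single-exon row differed at 3 of these bases and Slc25a4 at 25. How reads that match both Slc25a5 loci were assigned is not given in the sources used here. With all rows of a symbol summed, the numbers of pair ratios that differed, given further on, did not change. The single-exon row had mean RPKM of 53.1 in iWAT, 47.0 in eWAT and 43.7 in BAT, against 67.8, 64.4 and 64.2 for the Slc25a5 gene. The Slc25a4 shares given above leave this row out and would be lower with it. Whether Slc25a4 is the larger of the pair in BAT depends on how the row is counted. Of the 44 coding sequences, 2 others had alignments elsewhere in mm9 of at least 95% identity and 50 bases: Slc25a36 over all its coding bases (chr2:8962744-8963294 in the longest) and Slc25a40 over 76.7% (chr9:88175311-88176023). Their counts are uncertain for the same reason.

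Phosphate enters the matrix through Slc25a3, which had 37.7, 40.5 and 40.8 RPKM (lowest, median, highest) in iWAT, 40.04, 42.0 and 43.6 in eWAT and 29.9, 36.3 and 40.7 in BAT. The groups overlapped, and the 2 white depots did not differ by the test (-0.05 ± 0.06, adjusted p = 0.421). It was called higher in BAT (-0.44 ± 0.08 and -0.36 ± 0.08), with the opposite sign where scaling was left out. Slc25a23, Slc25a24 and Slc25a25 are calcium-regulated carriers that exchange ATP-Mg for phosphate, and they went opposite ways.

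Slc25a23 had 9.14, 11.1 and 14.0 RPKM in iWAT, 1.73, 4.26 and 6.04 in eWAT and 18.05, 19.7 and 23.9 in BAT. Slc25a24 had 11.8, 13.9 and 14.99 RPKM in iWAT, 21.8, 24.5 and 30.4 in eWAT and 1.33, 1.52 and 2.03 in BAT. For both genes the 3 groups did not overlap, with the depots in opposite order. Slc25a23 was higher in BAT (-1.43 ± 0.11 and -2.98 ± 0.26), while Slc25a24 was higher in both white depots (2.53 ± 0.09 and 3.44 ± 0.11, adjusted p = 1.64e-12 and 3.65e-13) and in eWAT over iWAT (-0.87 ± 0.08). Slc25a25 was also higher in both white depots (2.45 ± 0.21 and 1.64 ± 0.24), with 11.6, 13.2 and 17.9 RPKM in iWAT, 5.57, 7.61 and 10.8 in eWAT and 1.07, 1.47 and 3.01 in BAT. The Slc25a24 share of Slc25a24 plus Slc25a25 was 49.4% ± 4.92 in iWAT, 75.9% ± 6.63 in eWAT and 49.1% ± 10.1 in BAT. It did not differ between iWAT and BAT (difference of log2 ratios 0.02, exact permutation p = 0.935), where both genes were lower in BAT. Slc25a41 had no read in the 12 white libraries and at most 2 reads in a BAT library.

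Citrate leaves mitochondria through Slc25a1 to supply cytosolic acetyl-CoA. Its RPKM was 105, 151 and 171 in iWAT, 37.9, 70.4 and 88.3 in eWAT and 98.9, 176 and 341 in BAT. The iWAT range lay inside the BAT range and above all eWAT libraries. The log2 fold change of iWAT over eWAT was 1.15 ± 0.21 (adjusted p = 0.000352) and that of eWAT over BAT was -2.14 ± 0.29. The call of iWAT against BAT (-1.01 ± 0.24, adjusted p = 0.0014) was lost when BAT was represented by libraries 2 and 17 alone (-0.31, adjusted p = 0.230), as was that of Slc25a38 (-0.20, adjusted p = 0.119). Cytosolic enzymes that use citrate or its products (Acly, Acaca, Fasn and Me1) were all 4 higher in BAT in both comparisons, with median log2 fold changes of -3.65 and -4.07.

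The dicarboxylate carrier Slc25a10, which exchanges malate or succinate for phosphate, differed from BAT in the opposite direction. It had 44.7, 61.0 and 71.3 RPKM in iWAT, 13.5, 26.9 and 35.8 in eWAT and 1.14, 2.05 and 3.67 in BAT, and the groups did not overlap. Log2 fold changes were 4.18 ± 0.24 for iWAT over BAT (adjusted p = 2.81e-10), 2.90 ± 0.28 for eWAT over BAT and 1.29 ± 0.23 for iWAT over eWAT. Its lowest eWAT values, 13.5 and 15.4, were in libraries 3 and 1, and without these the last value was 1.01 ± 0.15. The oxoglutarate carrier Slc25a11, part of the malate-aspartate shuttle, had 23.5, 26.5 and 27.7 RPKM in iWAT, 29.1, 31.3 and 34.1 in eWAT and 34.5, 41.2 and 49.7 in BAT, again without overlap, and was higher in BAT (-1.28 ± 0.07 and -0.99 ± 0.07). Slc25a10 therefore took 69.5% ± 2.90 of the summed RPKM of Slc25a10 and Slc25a11 in iWAT, 42.9% ± 10.5 in eWAT and 5.07% ± 2.02 in BAT (each difference with an adjusted exact permutation p of 0.00271). Slc25a21 had at most 5 reads in a library.

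The aspartate/glutamate carriers are the other transport step of the malate-aspartate shuttle, and both were lower in BAT. Slc25a12 had 0.474, 0.733 and 1.004 RPKM in iWAT, 1.157, 1.43 and 1.92 in eWAT and 0.240, 0.297 and 0.341 in BAT. Slc25a13 (citrin), at chr6:5990942-6167173 in mm9, had 1.38, 2.07 and 2.82 RPKM in iWAT, 7.77, 9.66 and 12.1 in eWAT and 0.0370, 0.0820 and 0.117 in BAT, where a library held 3 to 16 reads. Neither gene's groups overlapped, and eWAT was highest for both. Slc25a13 differed more than any other carrier between eWAT and BAT in the white direction (6.40 ± 0.19, adjusted p = 2.84e-13), by 4.14 ± 0.23 between iWAT and BAT, and by -2.23 ± 0.16 between iWAT and eWAT. In the same order, Slc25a12 differed by 1.73 ± 0.15, 0.68 ± 0.15 and -1.01 ± 0.16. The Slc25a12 share of the pair was 25.8% ± 4.03 in iWAT, 12.9% ± 1.18 in eWAT and 79.8% ± 7.74 in BAT, where the pair's total was lowest. These shares rest on row lengths of 12236 bases for Slc25a12 and 3534 for Slc25a13, whereas their coding lengths are 2034 and 2031. In iWAT library 1, Slc25a12 held 303 reads and Slc25a13 held 209. A fixed row length cancels where the ratio of a pair is compared between tissues. The ratio differed between the white depots (difference 1.23 on the log2 scale, adjusted exact permutation p = 0.00271) and was not tested against BAT because 1 BAT library had 3 reads for Slc25a13. Of the shuttle's enzymes, the dehydrogenases Mdh1 (-0.84 and -1.55) and Mdh2 (-2.29 and -2.87) were higher in BAT in both comparisons. The aminotransferases Got1 (0.55) and Got2 (1.03) were higher in eWAT than in BAT, while against iWAT Got1 was higher in BAT (-0.93) and Got2 was not called (-0.13, adjusted p = 0.269).

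The glutamate carrier Slc25a22 was higher in BAT (-0.90 ± 0.11 and -1.63 ± 0.12), with 6.56, 8.20 and 9.28 RPKM in iWAT, 3.77, 4.74 and 6.14 in eWAT and 7.53, 9.87 and 13.0 in BAT. Its paralogue Slc25a18 was near the limit of detection, at 2 to 20 reads per library, with medians of 0.196, 0.264 and 0.0734 RPKM in iWAT, eWAT and BAT. Between the white depots Slc25a18 had a log2 fold change of -0.65 ± 0.36 and did not pass the test (adjusted p = 0.123).

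The white-depot differences of several carriers ran with the macrophage markers. All 7 of those markers were higher in eWAT (log2 fold changes -1.83 to -2.45). The eWAT libraries 1 and 3, highest in macrophage markers, had the 2 highest eWAT values of Slc25a13 (12.1 and 11.9 RPKM). The same held for Slc25a24 (30.4 and 27.5), Slc25a43 (1.62 and 1.57), Slc25a45 (9.35 and 9.68) and Slc25a12 (1.92 and 1.75). It also held for Slc25a28 (9.01 and 9.63) and Slc25a11 (34.1 and 33.2), though not for Slc25a37 (7.27 and 7.45). In iWAT, library 3 with the highest macrophage sum had 2.82 RPKM of Slc25a13 and library 2 with the lowest had 1.38. With eWAT libraries 1 and 3 left out, Slc25a13 still differed by -2.09 ± 0.15, Slc25a24 by -0.78 ± 0.07 and Slc25a45 by -1.20 ± 0.13. Slc25a12 then differed by -0.85 ± 0.16, Slc25a43 by -2.07 ± 0.26 and Slc25a37 by -1.16 ± 0.14. Slc25a28 differed by -0.28 ± 0.07 and Slc25a11 by -0.23 ± 0.07. In this fit 30 of the 32 white-depot calls remained, all in the same direction. The calls lost were those of Slc25a39 (0.21, adjusted p = 0.0948) and Slc25a46 (0.14, adjusted p = 0.163). The same 7 markers were all higher in both white depots than in BAT, as were Slc25a12, Slc25a13, Slc25a24 and Slc25a45. Slc25a11 was instead higher in BAT than in both white depots. Other markers were higher in iWAT, as 24 of the called carriers were: 5 of 5 adipocyte markers (log2 fold changes 1.159 to 1.63) and 4 of 4 endothelial markers (1.62 to 2.11, sums of 99.5 to 280 RPKM in iWAT, 33.4 to 71.2 in eWAT and 68.7 to 99.6 in BAT). Fibroblast and progenitor markers summed to 508 to 650 RPKM in iWAT, 134 to 250 in eWAT and 24.8 to 42.2 in BAT. Of these 4 markers, 1 was called higher in iWAT and 3 were not called. Among tested markers of other lists, 4 of 5 brown adipocyte, 3 of 3 erythroid and 3 of 4 skeletal muscle markers were higher in iWAT. So were 3 of 4 nerve and Schwann and 1 of 2 lymphocyte markers. All 3 tested mesothelial markers were higher in eWAT. The part of these cell types in the carrier differences was not tested.

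**Figure D3:**
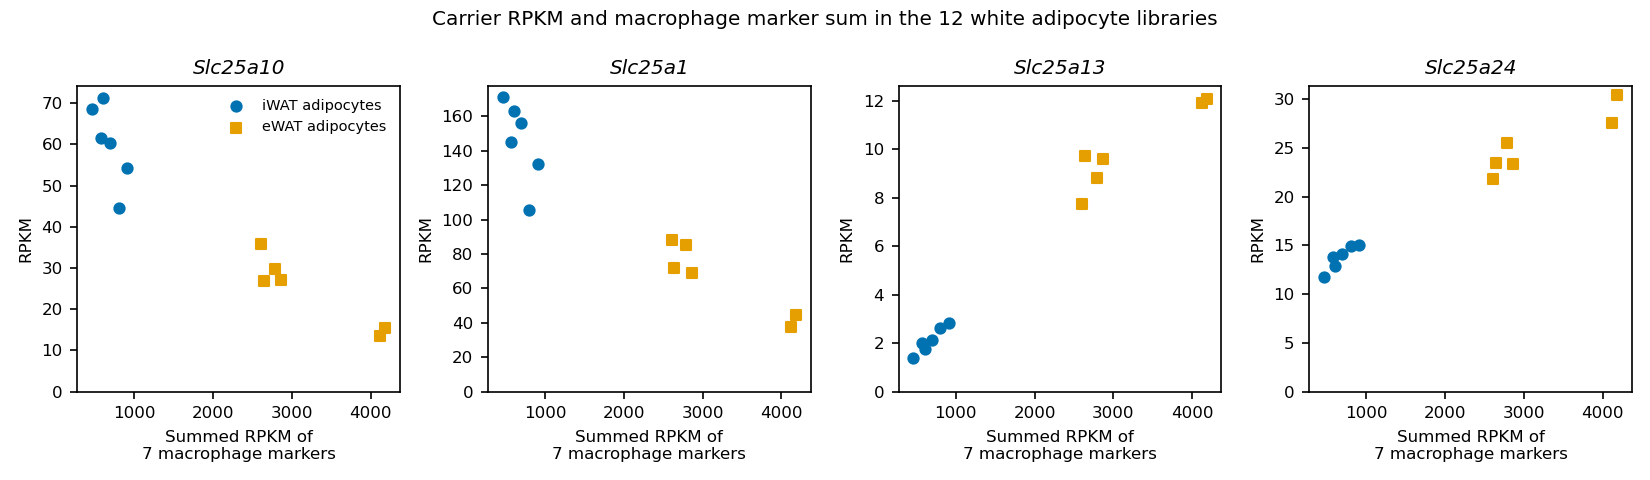
RPKM of 4 carriers (vertical axes) against the summed RPKM of 7 macrophage markers (horizontal axes) in the 12 white libraries; circles are iWAT and squares eWAT. The eWAT libraries with macrophage sums of 4186 and 4123 have the lowest Slc25a10 and Slc25a1 and the highest Slc25a13 and Slc25a24 of the eWAT group.

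Fatty acids enter the matrix as acylcarnitines through Slc25a20 (chr9:108564419-108586972, mm9). Its RPKM was 11.7, 14.8 and 16.7 in iWAT, 7.36, 9.27 and 10.5 in eWAT and 66.7, 74.2 and 84.4 in BAT. The lowest BAT library was far above the highest white library. Log2 fold changes were -2.96 ± 0.11 and -3.61 ± 0.10 against BAT (adjusted p = 3.44e-12 and 1.92e-13) and 0.68 ± 0.12 for iWAT over eWAT. The enzymes on either side of the carrier were Cpt1b and Cpt2, both higher in BAT (-6.61 and -8.18 for Cpt1b, -2.41 and -3.57 for Cpt2), while Cpt1a, the other outer-membrane enzyme, was higher in both white depots (2.19 and 2.69).

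All 8 cofactor and nucleotide carriers were higher in BAT than in eWAT, and 7 of 8 than in iWAT, Slc25a36 with the opposite sign where scaling was left out. Most of the family went the same way, with 27 of 39 and 27 of 38 carriers called higher in BAT. Over all genes tested the shares were 41.4% and 37.2%. Slc25a42, which imports coenzyme A, lies at chr8:72708238-72736204 (mm9) and had 0.831, 1.21 and 1.36 RPKM in iWAT, 0.330, 0.558 and 0.625 in eWAT and 16.3, 23.7 and 40.7 in BAT. No white library came near the BAT range. Its log2 fold changes were -5.02 ± 0.21 and -6.21 ± 0.24 (adjusted p = 9.24e-12 and 3.01e-12). Slc25a16, also linked to coenzyme A supply, had 7.54, 8.81 and 10.6 RPKM in iWAT, 4.12, 5.44 and 6.76 in eWAT and 5.05, 6.80 and 8.78 in BAT, overlapping between BAT and each depot, and was not called between iWAT and BAT (-0.24 ± 0.13, adjusted p = 0.104). The Slc25a16 share of these 2 carriers thus went from 88.4% ± 1.12 in iWAT and 91.4% ± 1.27 in eWAT to 22.2% ± 4.14 in BAT (adjusted exact permutation p = 0.00271 for each comparison with BAT).

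The pyrimidine nucleotide carriers differed from each other: Slc25a33 had 3.16, 3.60 and 4.07 RPKM in iWAT, 1.36, 2.17 and 2.35 in eWAT and 4.27, 7.34 and 8.64 in BAT, without overlap. Slc25a36 had 5.85, 6.43 and 6.82 RPKM in iWAT, 5.41, 5.77 and 5.89 in eWAT and 4.82, 5.54 and 5.92 in BAT, and its groups overlapped. Slc25a33 took 36.1% ± 2.23, 25.8% ± 4.11 and 55.0% ± 5.86 of the pair in these groups, and all 3 differences passed the exact permutation test (adjusted p = 0.00271), with the copies of Slc25a36 named above as a limit. Slc25a17 (a peroxisomal cofactor carrier), Slc25a26 (S-adenosylmethionine) and Slc25a32 (folate and FAD) were higher in BAT by log2 fold changes between -1.26 and -1.74 in the 2 comparisons.

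Amino acid carriers for ornithine and basic amino acids (Slc25a15, Slc25a29), glycine (Slc25a38) and branched-chain amino acids (Slc25a44) were each called higher in BAT in both comparisons and higher in iWAT than in eWAT, with signs against BAT that reversed without scaling for Slc25a38 in both comparisons and for Slc25a15 and Slc25a29 against iWAT. Slc25a44 was the most abundant, with 12.3, 15.8 and 16.05 RPKM in iWAT, 8.43, 10.3 and 11.2 in eWAT and 20.1, 22.8 and 23.9 in BAT. Its groups did not overlap (-1.17 ± 0.09 and -1.74 ± 0.09). Slc25a15 had 1.93, 2.16 and 2.37, then 1.4997, 1.66 and 1.82, then 1.88, 2.46 and 2.92 RPKM in iWAT, eWAT and BAT, and Slc25a29 had medians of 0.339, 0.158 and 0.402 RPKM, with all libraries between 0.0905 and 0.535. The Slc25a15 share of these 2 was 86.0% ± 1.82 in iWAT, 91.7% ± 1.95 in eWAT and 85.2% ± 3.41 in BAT, and the iWAT and BAT ratios did not differ by the test (difference 0.07, exact permutation p = 0.690). Slc25a2 had at most 9 reads in a library.

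The mitoferrins import iron for heme and iron-sulfur clusters, and both were higher in eWAT than in iWAT. Slc25a37 had 2.30, 2.85 and 4.40 RPKM in iWAT, 5.80, 7.36 and 7.57 in eWAT and 2.15, 2.31 and 2.56 in BAT. Slc25a28 had 6.63, 6.78 and 6.86 RPKM in iWAT, 7.33, 8.72 and 9.63 in eWAT and 4.04, 6.12 and 7.16 in BAT. For both, eWAT stood clear of iWAT (-1.18 ± 0.13 and -0.33 ± 0.06, adjusted p = 4.1e-06 and 0.000438). Slc25a37 had 2 further rows of 4 to 78 reads, which were not used. It was higher in eWAT than in BAT (0.98 ± 0.09) and was not called between iWAT and BAT (-0.23 ± 0.12, adjusted p = 0.0858). Slc25a28 made up 69.1% ± 5.07, 55.2% ± 1.32 and 70.9% ± 4.13 of the pair in iWAT, eWAT and BAT, and eWAT differed from both others (adjusted exact permutation p = 0.00271). Erythroid markers, whose source cells use Slc25a37, were summed at 511 to 1123 RPKM in BAT, 116 to 563 in iWAT and 107 to 245 in eWAT, and macrophage markers, as given above, were higher in eWAT than in iWAT. The part of either cell type in the mitoferrin values was not tested.

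Of the glutathione carriers, Slc25a39 had 23.3, 29.2 and 32.6 RPKM in iWAT, 21.4, 24.001 and 26.5 in eWAT and 52.8, 66.8 and 77.1 in BAT. BAT stood clear of both depots, which overlapped (-1.79 ± 0.11 and -2.05 ± 0.10 against BAT). Slc25a40 had 0.799, 0.830 and 0.896 RPKM in iWAT, 0.618, 0.714 and 0.777 in eWAT and 0.428, 0.516 and 0.569 in BAT and was not called against BAT (0.12 ± 0.09 and -0.12 ± 0.10). Slc25a39 held 97.1% ± 0.319, 97.1% ± 0.216 and 99.2% ± 0.134 of the pair, and this ratio did not differ between the white depots (difference 0.01, exact permutation p = 0.896). Only 38.1% of the Slc25a40 row lies within the GENCODE gene of that name, which adds to the doubt about its count.

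**Figure D4:**
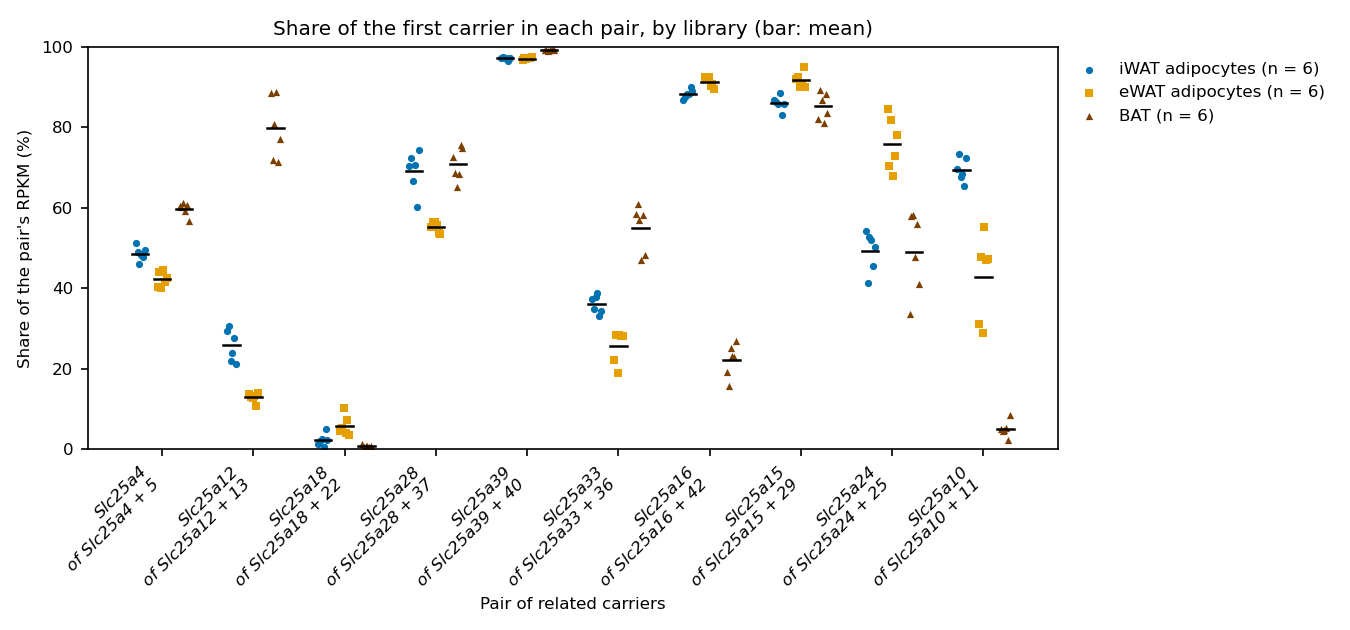
Share of the first carrier in the summed RPKM of each pair of related carriers (vertical axis, percent), 1 point per library; circles are iWAT, squares eWAT, triangles BAT (n = 6 each), and bars are means. The Slc25a16 share falls from 88.4% and 91.4% in the white depots to 22.2% in BAT, and the Slc25a10 share from 69.5% and 42.9% to 5.07%.

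In all, 8 of the 9 pair ratios tested differed between the white depots, 5 of 8 between iWAT and BAT, and 8 of 8 between eWAT and BAT. Slc25a18 with Slc25a22 was not tested in any comparison because of low reads.

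Among carriers related to the uncoupling proteins, Slc25a27 was higher in BAT (-2.87 ± 0.24 and -3.36 ± 0.25), with 0.260, 0.324 and 0.397 RPKM there against at most 0.129 in a white library. Slc25a30 was higher in both white depots (1.68 ± 0.12 and 1.83 ± 0.11), with 3.24, 3.88 and 5.20 RPKM in iWAT, 3.62, 4.37 and 5.11 in eWAT and 0.647, 0.790 and 1.02 in BAT. Slc25a14 was the carrier with enough reads in all comparisons that was called in none (-0.07 ± 0.13, 0.25 ± 0.16 and 0.35 ± 0.16), with 0.224, 0.318 and 0.336 RPKM in iWAT, 0.258, 0.313 and 0.375 in eWAT and 0.0990, 0.165 and 0.221 in BAT. The uncoupling proteins themselves split in the same manner: Ucp1 and Ucp3 were higher in BAT (-10.29 and -13.35 for Ucp1, -2.39 and -3.94 for Ucp3) and Ucp2 in both white depots (2.59 and 4.39).

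Carriers of other or uncertain substrate included Slc25a48, with the largest change of any carrier against BAT. Slc25a48 (chr13:56539716-56575600, mm9), which has been linked to choline import, had 0.137, 0.183 and 0.240 RPKM in iWAT, 0.00719, 0.0138 and 0.0399 in eWAT and 12.8, 14.6 and 17.6 in BAT. The lowest BAT library stood far above all white libraries, and iWAT above eWAT. The fitted log2 fold changes were -6.90 ± 0.15 and -10.13 ± 0.20 against BAT (adjusted p = 2.17e-14 and 1.65e-14) and 3.27 ± 0.35 between the depots, where eWAT libraries held 1 to 4 reads each, so the last 2 values rest on few reads. Slc25a34 (chr4:141174734-141179749, mm9) had 0.157, 0.228 and 0.275 RPKM in iWAT, 0.0801, 0.113 and 0.172 in eWAT and 2.09, 3.09 and 8.90 in BAT. Its log2 fold changes were -4.89 ± 0.35 and -5.73 ± 0.39, and with BAT libraries 2 and 17 as the BAT group they were -5.67 and -6.54. Slc25a35, also of uncertain substrate, had 5.06, 6.41 and 7.65 RPKM in iWAT, 1.159, 2.24 and 3.16 in eWAT and 21.2, 22.9 and 24.2 in BAT, without overlap (-2.46 ± 0.11 and -4.05 ± 0.21). In GENCODE, 31.3% of the exonic bases of Slc25a35 are shared with Rangrf on the opposite strand, and Rangrf was itself higher in BAT (-2.75 and -3.53). The kit did not mark strand, so reads of the 2 genes cannot be told apart there. In all, 10 of the 44 carriers shared exonic bases with another gene, from 3.17% (Slc25a23) to the 31.3% of Slc25a35.

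Slc25a45 and Slc25a43 went the other way. Slc25a45 had 2.27, 3.21 and 3.92 RPKM in iWAT, 6.21, 7.36 and 9.68 in eWAT and 0.855, 0.997 and 1.17 in BAT (0.998 ± 0.13 and 2.38 ± 0.13 over BAT). Slc25a43 had 0.122, 0.236 and 0.429 RPKM in iWAT, 0.900, 1.08 and 1.62 in eWAT and 0, 0.0198 and 0.0653 in BAT. For both the 3 groups did not overlap and eWAT was highest, with log2 fold changes between the depots of -1.35 ± 0.14 and -2.30 ± 0.26. The Slc25a43 fold over BAT (4.72 ± 0.41 from eWAT) rests on 0 to 4 reads per BAT library, and the comparison of iWAT with BAT fell under the count minimum. Slc25a46, an outer-membrane protein of mitochondrial shape control, ranged over 10.4 to 12.9, 8.93 to 11.4 and 11.7 to 17.4 RPKM in iWAT, eWAT and BAT (-0.93 ± 0.10 and -1.11 ± 0.09). Only 55.8% of its row lies within the GENCODE gene of that name, and 10.5% of that gene's exonic bases are shared with B930094E09Rik on the opposite strand. Slc25a47, best known from liver, was higher in BAT (-1.15 ± 0.24 and -2.49 ± 0.33) at 1 to 34 reads per library, with medians of 0.274, 0.113 and 0.428 RPKM in iWAT, eWAT and BAT.

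Other mitochondrial transport genes gave a background for these values. The 2 pyruvate carrier genes, listed as Brp44l and Brp44, were higher in BAT in both comparisons (-2.60 and -3.32 for Brp44l, -2.20 and -3.14 for Brp44) and higher in iWAT than in eWAT. Of the outer-membrane channels, 3 of 3 were higher in BAT than in iWAT and 2 of 3 than in eWAT. Of the sideroflexins, 3 of 5 were higher in BAT in each comparison, and Sfxn2 (1.13 and 0.80) and Sfxn3 (1.79 and 3.07) were higher in both white depots. Over all genes tested, 37.2% were called higher in BAT than in iWAT and 41.4% than in eWAT.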

How the data were processed

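RNA-seq was carried out on 18 libraries in 3 groups of 6 named by source label. Per the labels, the authors used a NEBNext Ultra kit and the mm9 genome; cutadapt 1.16 and HISAT2 2.1.0 are named in the submitters' processing notes, and the counting program, its annotation and the handling of reads with several matches are not given in the sources used here. The deposited tables give a read count per transcript row (whole numbers) and the RPKM the authors computed from it.

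Counts were tested with edgeR 4.0.16 in R 4.3.3 (glmQLFit, glmQLFTest, TMM, two-sided, a minimum mean of 10 reads across the 12 libraries compared, Benjamini-Hochberg over all genes). The standard error is the log2 fold change over the root of its F. RPKM served for levels, and ratios of pairs and the family sum were tested by exact permutation; a pair was tested where both genes had more than 3 reads in each library. DESeq2 1.42.0 and limma 3.58.1 served as alternatives; the fits within a lane, without eWAT libraries 1 and 3, and with BAT libraries 2 and 17 alone were chosen after seeing the data. The members given in most detail were by rule the 5 highest of each group, the 5 largest changes in each direction, the pairs, and those called in no comparison or under the count minimum. Their sample values appear as lowest, median and highest of 6, or as medians or read ranges for low genes. Members and lists were chosen with earlier results of these data known. On simulated counts, edgeR recovered 82.8% (iWAT against eWAT), 84.8% (iWAT against BAT) and 80.9% (eWAT against BAT) of the changed genes. These were changed by a log2 fold change of 1, and none had a wrong sign. False calls were 4.44%, 7.37% and 1.68% in the same order. Only 89 to 104 of 19483 to 19882 genes were changed at each fold size. The simulation therefore did not test the scaling on which the split of BAT calls depends. No 2 libraries were duplicates. The labels do not say whether each library is a separate mouse. The paper's supplement gives 6 per group and the NTac substrain of C57BL/6, without saying whether a mouse gave more than 1 library. The p-values therefore measure the spread between these libraries. Promoters are from RefSeq (GRCm38.p6) and coding sequences from GENCODE vM1. The values of 1 member are not reported here; it stays in the counts and sums.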

Additional observations from a re-analysis of the deposited data

Results flagged for a closer look

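In 130 sets of 6 RPKM values (member and group), 5 had 1 library whose gap to its nearest neighbour was large against the range of its group (Dixon's criterion), where chance gives about 1 in 20, or 6.5 of them. Of these, 3 were in iWAT library 5, the iWAT library with the lowest adipocyte marker sum (11221): Slc25a3 at 37.7 RPKM (others 40.2 to 40.8), Slc25a4 at 55.5 (others 64.2 to 68.0) and Slc25a44 at 12.3 (others 14.9 to 16.05). Slc25a24 was 2.03 in BAT library 2 (others 1.33 to 1.56), the BAT library with the lowest muscle marker sum (1.83 RPKM) and the highest macrophage marker sum (50.6 RPKM). Slc25a47 was 0.491 in iWAT library 1 (others 0.223 to 0.283), on 23 reads.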

How the results depend on the processing

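Of 2815 recomputed log2 fold changes of single carriers, 2649 kept their direction and their side of the threshold, 91 lost the call, 27 gained it and 48 changed sign. Of these 48, 39 were called before or after the change and arose where values were scaled by the library total alone, limma on RPKM included; the other 9 were called in neither. For iWAT adipocytes over BAT under limma on log2(RPKM + 0.1), these were Slc25a3 0.17, Slc25a5 0.084, Slc25a16 0.38, Slc25a28 0.23, Slc25a36 0.24, Slc25a37 0.34, Slc25a38 0.29. For iWAT adipocytes over BAT under limma on log2(RPKM + 1), these were Slc25a3 0.17, Slc25a5 0.083, Slc25a16 0.34, Slc25a28 0.20, Slc25a36 0.21, Slc25a37 0.26, Slc25a38 0.23. For iWAT adipocytes over BAT under no scaling, these were Slc25a3 0.41, Slc25a5 0.33, Slc25a15 0.074, Slc25a16 0.61, Slc25a28 0.45, Slc25a29 0.011, Slc25a36 0.49, Slc25a37 0.64, Slc25a38 0.54. For eWAT adipocytes over BAT under limma on log2(RPKM + 0.1), these were Slc25a3 0.24, Slc25a5 0.013, Slc25a28 0.56, Slc25a36 0.077, Slc25a40 0.41. For eWAT adipocytes over BAT under limma on log2(RPKM + 1), these were Slc25a3 0.23, Slc25a5 0.013, Slc25a28 0.49, Slc25a36 0.066, Slc25a40 0.18. For eWAT adipocytes over BAT under no scaling, these were Slc25a3 0.55, Slc25a5 0.33, Slc25a28 0.86, Slc25a36 0.40, Slc25a38 0.094, Slc25a40 0.79. The 9 uncalled ones were, between the white depots, Slc25a5 -0.00055 under no scaling, Slc25a14 0.11 and Slc25a27 -0.022 within lane 2, Slc25a30 0.25 within lane 1 and Slc25a14 0.0029 without iWAT library 3 (-0.13 to 0.0029 over all libraries left out in turn), and, for eWAT adipocytes over BAT, Slc25a28 0.058 with a minimum of 1 read in a sample, 0.11 with the replicate block and 0.0073 without eWAT library 4 (-0.14 to 0.0073 over all libraries left out in turn), and Slc25a40 0.027 with BAT libraries 2 and 17 alone. With limma, 15 carriers were higher in iWAT adipocytes than in BAT (both pseudocounts) and 14 in eWAT adipocytes than in BAT. With no scaling these were 16 and 15, and 16 carriers were higher in BAT than in iWAT adipocytes. The share of all genes called in each direction was not worked out for these settings. Requiring also an absolute log2 fold change of at least 1 left 13 carriers between the white depots (8 and 5) and 4892, 7363 and 9830 genes in the 3 comparisons. Within lane 1, 21 carriers (15 higher in iWAT adipocytes) and 7300 genes were called, with fewer libraries. Leaving out 1 library at a time gave 30 to 33, 34 to 35 and 36 to 37 carriers called. All genes called were then 12667 to 13562, 14434 to 14833 and 16270 to 16552. DESeq2 called 33, 34 and 36 carriers, and 13719, 14910 and 16585 of all genes.

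Same-numbered libraries did not deviate together (correlations from -0.23 to 0.37, so the numbers do not show a pairing). With the title number as a replicate block, 31, 32 and 36 carriers were called, and 12836, 12555 and 15149 of all genes. Of the pair ratios, 8 of 9 differed between the white depots. The block turned the direction of no call.

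Carriers with few reads (Slc25a2, Slc25a21, Slc25a31 and Slc25a41) could not be compared at this depth. Leaving out the highest member kept the order of the family sums, as did dividing by the TMM factor, with the changed sizes and overlap given above.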
